A study of Mus musculus with 32 samples.

Results

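The epidermal growth factor (EGF) receptor family and its ligands were followed across total RNA, ribosome pools and immunoprecipitated RNA of mouse mammary epithelial cells. The genes considered were the receptors Egfr, Erbb2 and Erbb3 and the ligands Areg, Ereg, Hbegf, Tgfa and Btc. A probe set, the group of short probes that an Affymetrix array reads as 1 transcript, was taken when its annotation named a single one of these symbols. This gave 18 probe sets for 7 of the 8 genes, among 18193 genes that the array annotation names by 1 symbol; Areg had no named probe set and is not analysed here. Egfr was represented by 7 probe sets, Tgfa by 3, Erbb3, Hbegf and Btc by 2 each, and Erbb2 and Ereg by 1 each. Testing required a log2 value above 5.52, the median over the whole table, in 8 or more of the 32 arrays, and 16 of the 18 met this. Egfr 1457563_at, at 3.33 to 4.64, and Btc 1421161_at, at 3.15 to 5.30, did not reach that median in any array.

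EGFR, ErbB2 and ErbB3 are receptor tyrosine kinases that act as pairs. ErbB2 has no known ligand and serves as a partner for the others, whereas ErbB3 binds neuregulins and has little kinase activity of its own. Amphiregulin (Areg), epiregulin (Ereg), heparin-binding EGF-like growth factor (Hbegf), transforming growth factor alpha (Tgfa) and betacellulin (Btc) are made as membrane-anchored precursors, are cut free by ADAM proteases and bind EGFR, with Ereg, Hbegf and Btc also binding ErbB4. Occupied receptors signal through the Ras-MAPK and PI3K-Akt routes, and in the mammary gland this system drives ductal growth. Ereg, Areg and Btc are consecutive protein-coding genes on mouse chromosome 5 of the GRCm38.p6 assembly.

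NMuMG, a normal murine mammary gland epithelial line, was compared with E1KD, an NMuMG derivative in which hnRNP E1, an RNA-binding protein encoded by Pcbp1, is knocked down. E1KD is 1 derivative line, and neither line carries another engineered change named in the labels. Both were left untreated (control) or given TGFβ2 at 5 ng/ml for 24 h. From each of these 4 conditions total RNA, a monosomal pool (M; free ribosomal subunits and single ribosomes, taken as not translating) and a polysomal pool (P; several ribosomes per mRNA, taken as translating) were hybridized, 2 arrays per group. In NMuMG alone, cytosolic extracts of control and TGFβ-treated cells were also immunoprecipitated with an antibody to hnRNP E1 (α-hnRNP E1) or with mouse IgG, again 2 arrays per group, and for these the labels give no treatment time. Values are log2 RMA intensities. The labels call the 2 arrays of a group biological replicates without saying which steps were repeated, and the p-values cover no more than the spread between these arrays, which may be technical.

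Several properties of the whole series bear on what follows. The Pcbp1 probe set 1448642_at read 13.08 to 13.30 in the 12 NMuMG arrays of total RNA and pools and 8.44 to 10.86 in the 12 E1KD arrays, without overlap. In total RNA, 5 of 7 epithelial markers and 6 of 7 mesenchymal markers exceeded 5.52 in all 4 conditions, while Cldn7 and Esrp1 did not; none of 3 endothelial and none of 2 measured adipocyte markers did. Cd68 was the 1 leukocyte marker of 3 measured that did so, at a mean of 8.31 in E1KD control against 6.58 in NMuMG control, and the pan-leukocyte Ptprc did not. Replicate arrays correlated at 0.974 to 0.998. The 2 NMuMG monosomal control arrays stood apart from the other pools: their interquartile range of log2 values was 3.69 to 3.80 and their correlation with NMuMG control total RNA 0.929 to 0.933, against 2.80 to 3.33 and 0.722 to 0.869 for the other 14 pool arrays, and total RNA had 3.82 to 4.05 and 0.944 to 0.999. The part of this difference in the NMuMG pool results was not tested, but the polysome shifts are given below also with total RNA in place of the monosomal pool. For α-hnRNP E1 the labels conflict: replicate 2 of control and replicate 2 of TGFβ, as their titles and source names give them, change places by their descriptions, so both groupings are given.

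In total RNA, TGFβ lowered 2 ligand mRNAs of NMuMG cells and no receptor probe set passed the test. Of the 16 member probe sets, 0 rose and 2 fell, or 12.5%, against 5.43% of all 25432 probe sets tested, 3.0% higher and 2.43% lower (limma, adjusted p under 0.05). Btc 1435541_at read 7.18 and 7.45 in control and 6.31 and 6.22 with TGFβ. Its groups did not overlap, and the log2 difference was -1.05 ± 0.18 (SE), 2.07-fold lower, with a limma adjusted p of 0.00128. Ereg 1419431_at read 9.52 and 9.60 in control and 8.88 and 8.68 with TGFβ, a log2 difference of -0.78 ± 0.18 (adjusted p = 0.0139). In bulk RNA such a fall cannot be told apart from fewer cells that express the gene. Without 1 array (either NMuMG control array or TGFβ replicate 2 of total RNA) the Ereg call was lost, with adjusted p values of 0.0779, 0.127 and 0.163, while Btc stayed past the threshold. With arrays centred on Actb and Gapdh neither passed, at -0.79 (adjusted p = 0.0764) for Btc and -0.52 (adjusted p = 0.29) for Ereg. Tgfa 1421943_at, at 9.77 and 9.76 in control and 9.35 and 9.33 with TGFβ, did not pass (log2 difference -0.43 ± 0.16, adjusted p = 0.174). That standard error comes from the fit shared with the pool arrays. The fall passed with only the arrays compared (adjusted p = 0.0164) and with quantile normalization (-0.50, adjusted p = 0.0173).

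In E1KD total RNA, TGFβ changed a Tgfa and an Egfr probe set. There 1 member probe set rose and 1 fell, or 12.5%, against 21.2% of all probe sets tested (11.4% higher and 9.75% lower). Tgfa 1421943_at read 7.91 and 7.85 in control and 8.64 and 8.65 with TGFβ, a log2 difference of 0.77 ± 0.16 (adjusted p = 0.00239). Egfr 1460420_a_at read 7.87 and 7.71 in control and 7.33 and 7.30 with TGFβ, a log2 difference of -0.48 ± 0.15 (adjusted p = 0.0323). This Egfr call was lost without any 1 of the 4 arrays compared (adjusted p of 0.068 to 0.212), and its difference turned to 0.16 when arrays were centred on Actb and Gapdh. That centring moved the median of all probe sets in this comparison from -0.02 to 0.62, and 9 members then rose and 0 fell. Of all probe sets 60.04% were then called, 14967 higher and 302 lower. Egfr 1435888_at went the other way, from 10.06 and 10.02 to 10.53 and 10.55 (0.50), and was not called. It passed with only the arrays compared (limma adjusted p = 0.00825) and with that centring (1.13, adjusted p = 0.00487). Egfr 1424932_at (-0.31) and 1432647_at (-0.395) fell and passed with only the arrays compared (0.0307 and 0.0243). Btc, at 6.45 and 6.40 in control and 6.74 and 6.61 with TGFβ, did not pass in E1KD (0.25 ± 0.18, adjusted p = 0.38). Ereg, at 10.09 and 10.00 in control and 10.16 and 9.97 with TGFβ, overlapped between the groups.

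The difference between the lines in their response was itself past the threshold for 2 members, Btc and Tgfa 1421943_at, or 12.5%, against 11.4% of all probe sets (5.76% above 0 and 5.69% below). The TGFβ effect in E1KD minus that in NMuMG was 1.30 ± 0.25 for Btc (adjusted p = 0.00263) and 1.19 ± 0.23 for Tgfa 1421943_at (adjusted p = 0.00229). For Ereg it was 0.80 ± 0.25 and did not pass (adjusted p = 0.0515), but it passed under 7 of 9 alternatives with all arrays, among them the block on replicate number (0.0461) and quantile normalization (0.85, adjusted p = 0.024). For Egfr 1460420_a_at, which fell in E1KD, it was -0.17 ± 0.21 and did not pass (adjusted p = 0.771). The Btc level was highest in untreated NMuMG cells, and in the other total RNA conditions its arrays lay between 6.22 and 6.74.

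**Figure D1:**
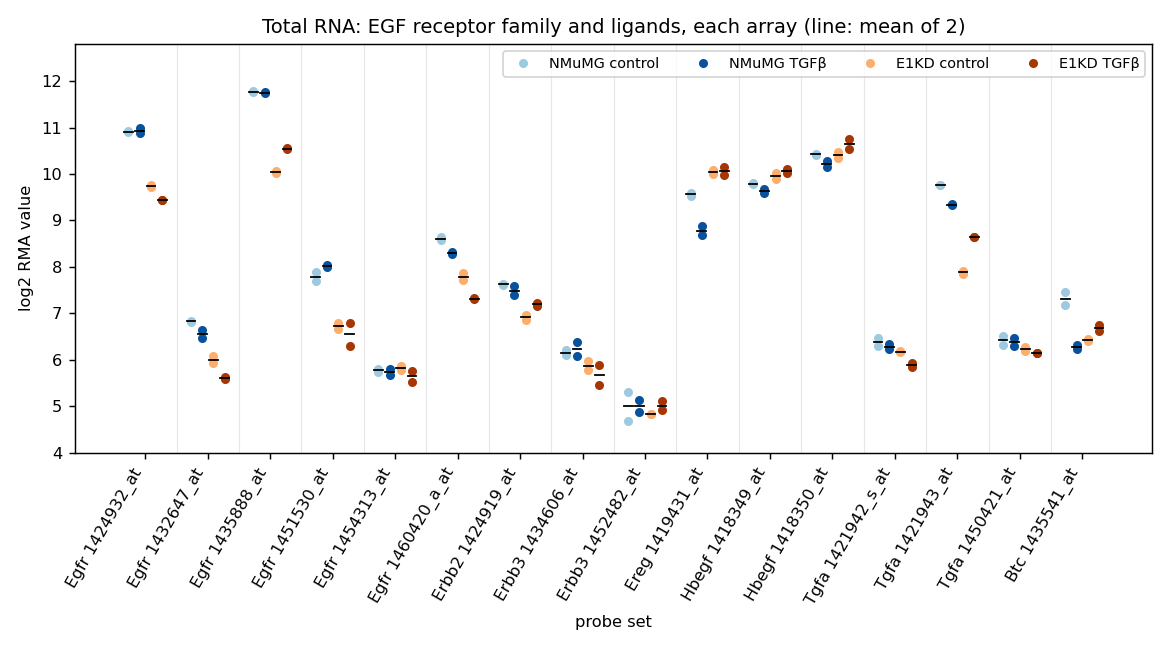
Log2 RMA values (vertical axis) of the 16 tested probe sets (horizontal axis) in the 8 total RNA arrays; each point is 1 array, coloured by line and treatment, and each line is the mean of 2. E1KD points of Egfr 1424932_at (9.43 to 9.76) lie below NMuMG points (10.89 to 10.98), and for Tgfa 1421943_at the order is NMuMG control, NMuMG TGFβ, E1KD TGFβ, E1KD control.

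Total RNA of untreated E1KD cells held less of most Egfr probe sets, of Erbb2 and of 2 ligand probe sets than that of NMuMG cells. Of the 16 member probe sets 0 were higher and 8 were lower, or 50.0%, against 29.3% of all probe sets tested (15.8% higher and 13.5% lower). The median difference over the members was -0.50, against -0.02 over all probe sets. Egfr gave 6 of the 16 probe sets, so shares and medians over the members count 1 gene several times. Egfr 1435888_at read 11.76 and 11.78 in NMuMG and 10.06 and 10.02 in E1KD, a log2 difference of -1.73 ± 0.28, 3.32-fold lower (adjusted p = 0.000158). Egfr 1424932_at read 10.92 and 10.91 in NMuMG and 9.72 and 9.76 in E1KD, a difference of -1.18 ± 0.25 (adjusted p = 0.00195). The remaining Egfr probe sets 1451530_at, 1432647_at and 1460420_a_at were lower by log2 differences of -1.07, -0.83 and -0.82, whereas 1454313_at, at 5.81 and 5.74 in NMuMG and 5.87 and 5.77 in E1KD, did not differ beyond its spread (0.05 ± 0.20, adjusted p = 0.919). Erbb2 1424919_at read 7.61 and 7.64 in NMuMG and 6.86 and 6.97 in E1KD, a difference of -0.71 ± 0.15 (adjusted p = 0.00145).

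Among the ligands, Tgfa 1421943_at differed most between the untreated lines. It read 9.77 and 9.76 in NMuMG and 7.91 and 7.85 in E1KD, 3.69-fold lower, with a log2 difference of -1.89 ± 0.16 (adjusted p = 1.37e-07). The other Tgfa probe sets, 1421942_s_at and 1450421_at, differed by -0.21 ± 0.21 and -0.19 ± 0.14 and did not pass, so the 3 Tgfa probe sets disagreed. Btc read 7.18 and 7.45 in NMuMG and 6.45 and 6.40 in E1KD, a difference of -0.89 ± 0.18 (adjusted p = 0.00102). Ereg read 9.52 and 9.60 in NMuMG and 10.09 and 10.00 in E1KD, a difference of 0.49 ± 0.18 that missed the threshold at an adjusted p of 0.0516; under 5 alternatives, quantile normalization and the block on replicate number among them, it passed, at adjusted p of 0.00501 to 0.0465. All 8 lower calls held when any 1 of the 4 arrays was left out.

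With TGFβ, 3 members were higher and 7 lower in E1KD than in NMuMG total RNA, or 62.5%, against 27.2% of all probe sets tested (14.7% higher and 12.5% lower). Ereg was 2.44-fold higher (1.29 ± 0.18, adjusted p = 4.25e-05), since NMuMG arrays had 8.88 and 8.68 and E1KD arrays 10.16 and 9.97. Both Hbegf probe sets were higher in E1KD, 1418350_at by 0.44 ± 0.12 (10.29 and 10.14 against 10.76 and 10.54; adjusted p = 0.00949) and 1418349_at by 0.44 ± 0.15 (adjusted p = 0.0427). The call of 1418349_at was lost without any 1 of the 4 arrays (adjusted p of 0.1 to 0.204), and that of 1418350_at without TGFβ-treated NMuMG replicate 2 or E1KD replicate 1 of total RNA (0.104 and 0.131). Lower were the same 5 Egfr probe sets as in control, by -0.95 to -1.51, Tgfa 1421943_at by -0.70 ± 0.16 (adjusted p = 0.00352) and Erbb3 1434606_at by -0.56 ± 0.18 (6.07 and 6.39 against 5.45 and 5.89; adjusted p = 0.0253). The Erbb3 call did not hold without NMuMG replicate 2 or E1KD replicate 1 (adjusted p = 0.237 and 0.301). Centring on Actb and Gapdh, which moved the median of all probe sets here to 0.43, left 4 members higher and 2 lower. Of all probe sets 34.24% were then called, 8103 higher and 605 lower.

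Next, each mRNA was compared between the 2 ribosome pools. In untreated NMuMG cells 5 members were higher and 6 lower in P than in M, or 68.8%, against 71.2% of all probe sets (29.3% higher and 41.9% lower). Centring each array on its median changed this to 8 higher and 3 lower, with 77.1% of all probe sets called (12251 higher and 7358 lower). With TGFβ, 6 were higher and 2 lower (49.7% of all probe sets called, 27.6% higher and 22.1% lower). After that centring 6 were higher and 5 lower, with 50.78% of all probe sets called. In E1KD cells 2 were higher and 1 lower without TGFβ (35.0% of all called, 16.8% higher and 18.2% lower), and 4 were higher and 5 lower with it (60.7% of all called, 34.0% higher and 26.6% lower). The shares of members called thus lay near or below those of the whole array. Leaving out replicate 1 of the polysomal pool of TGFβ-treated NMuMG cells reduced the count in that comparison from 8 to 5.

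The polysome shift, defined as P minus M with TGFβ minus the same difference in control, asks whether TGFβ moved an mRNA towards polysomes. In NMuMG cells 7 member probe sets had a shift above 0 and 7 below it that passed the test, or 87.5%, against 70.4% of all probe sets tested, 40.1% above and 30.3% below. The median was 0.15 over the members and 0.09 over all. Within Egfr, Erbb3 and Tgfa the fitted shifts had both signs. With arrays centred on the median, 5 members were above 0 and 8 below, with 78.17% of all probe sets called (7830 above and 12049 below).

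When P was set against M, Egfr was the gene whose probe sets disagreed most clearly. With total RNA in place of M, none of its shifts passed. In M, 1424932_at read 8.18 and 8.23 in control and 6.35 and 6.53 with TGFβ, and in P it read 7.75 and 6.61 in control and 7.88 and 8.05 with TGFβ. The monosomal values did not overlap between the treatments, while the polysomal control arrays lay more than 1 log2 unit apart. In control, P minus M was -1.03 ± 0.25 (adjusted p = 0.00199), and -0.46 (adjusted p = 0.0501) without polysomal replicate 2. The shift was 2.55 ± 0.36, or 5.86-fold (adjusted p = 1.13e-05). For 1435888_at, M read 9.04 and 9.09 in control and 6.91 and 8.10 with TGFβ, and P read 8.54 and 7.76 in control and 8.48 and 8.74 with TGFβ, giving a shift of 2.02 ± 0.40 (adjusted p = 0.000285). The shift of 1432647_at ran the other way, at -1.88 ± 0.29 (adjusted p = 2.94e-05), as M read 6.24 and 5.95 in control and 7.48 and 6.99 with TGFβ and P read 7.29 and 7.69, then 6.74 and 6.76. Likewise below 0 were 1454313_at (-1.35 ± 0.29) and 1460420_a_at (-1.32 ± 0.21), and 1451530_at gave -0.22 ± 0.32 (adjusted p = 0.542).

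**Figure D2:**
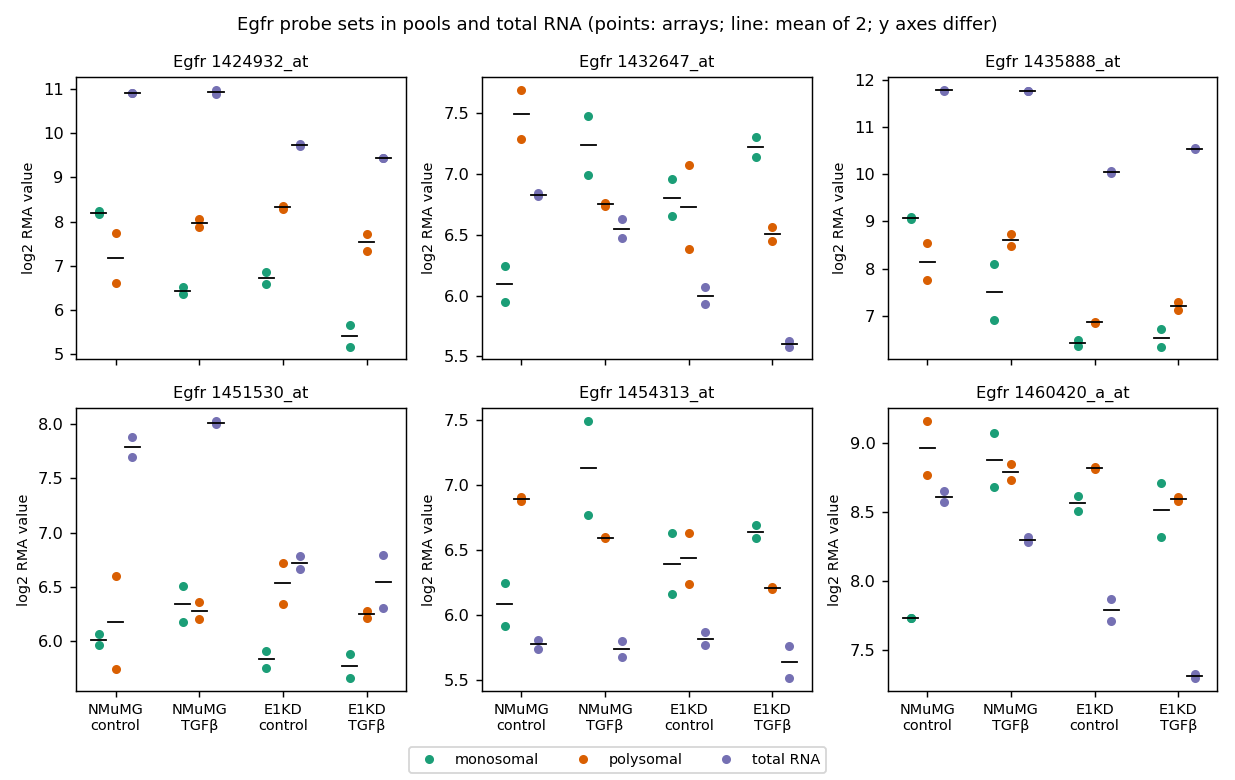
Log2 RMA values (vertical axes, each panel with its own range) of the 6 tested Egfr probe sets in the monosomal pool, the polysomal pool and total RNA of the 4 conditions (horizontal axis); points are arrays and lines the mean of 2. For 1424932_at and 1435888_at total RNA lies above both pools in every condition, whereas 1454313_at lies lower in total RNA than in either pool in every condition.

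The Egfr probe sets also fell apart in comparisons that include total RNA. These reuse pool values that enter the shift, so they are not independent of it. Over the 12 condition means of pools and total RNA, 1424932_at correlated at 0.91 with 1435888_at and 0.88 with 1451530_at, but at -0.54, -0.83 and -0.41 with 1432647_at, 1454313_at and 1460420_a_at; these points share arrays and normalization, and the values are descriptions. The annotation assigns 1424932_at and 1451530_at to the same sequence record and 1432647_at and 1454313_at to another, and the probe sets that share a record correlated at 0.88 and 0.80. In P of NMuMG control, 1424932_at lay -3.74 ± 0.25 and 1435888_at -3.62 ± 0.28 from total RNA on the log2 scale (adjusted p = 1.8e-09 and 7.85e-09; 79.5% of all probe sets were called in that comparison, which was added after the data were seen). These differences were at percentiles 0.594 and 0.743 of all probe sets. The 1454313_at value lay 1.12 ± 0.20 above total RNA, at percentile 87.9. Which probe set measures the full-length receptor mRNA was not tested.

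In E1KD cells no Egfr probe set had a shift that passed the test: 1424932_at gave 0.51 ± 0.36 (adjusted p = 0.299) and 1435888_at 0.23 ± 0.40 (adjusted p = 0.696). For 1424932_at, P exceeded M in E1KD both without TGFβ (8.29 and 8.36 against 6.59 and 6.86; 1.60 ± 0.25, adjusted p = 0.000116) and with it (7.34 and 7.72 against 5.67 and 5.17; 2.11 ± 0.25, adjusted p = 2.33e-06). For 1435888_at the same 2 differences were 0.44 ± 0.28 (adjusted p = 0.248) and 0.67 ± 0.28 (adjusted p = 0.0499), the latter lost without E1KD monosomal replicate 2 or either polysomal replicate (0.0815 to 0.256), and also with the replicate block (0.0567), without the filter (0.0639) and with median centring (0.109). Across E1KD, 1 member shift was above 0 and 2 below it, or 18.8%, against 28.7% of all probe sets (20.9% above and 7.73% below).

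Erbb2, the partner receptor, had a shift below 0 in both lines when P was set against M, and with total RNA in place of M neither passed. In NMuMG, M read 8.52 and 7.97 in control and 9.38 and 9.17 with TGFβ, and P read 7.58 and 7.61, then 7.58 and 7.33, a shift of -1.17 ± 0.21 (adjusted p = 0.000122). In E1KD, M read 7.21 and 7.37, then 8.12 and 8.15, and P read 7.08 and 7.01, then 6.72 and 6.66, a shift of -1.20 ± 0.21 (adjusted p = 0.00101). The groups did not overlap in M of either line, where TGFβ minus control was 1.03 in NMuMG and 0.85 in E1KD against -0.14 and -0.36 in P, and the difference between the shifts was 0.03 ± 0.30 (adjusted p = 0.948). Erbb3 1452482_at had a shift of -0.83 ± 0.27 in NMuMG (adjusted p = 0.0124), lost without replicate 1 of either TGFβ pool (0.0536 and 0.0661), whereas 1434606_at gave 0.51 ± 0.25 (adjusted p = 0.0773). In E1KD neither passed, at -0.34 ± 0.27 and 0.48 ± 0.25. Erbb3 1452482_at exceeded the filter level of 5.52 in 14 of the 32 arrays, all of them pool arrays. Its NMuMG monosomal control values, 5.23 and 5.30, lay under that level.

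Of the ligands, Ereg had a shift above 0 in both lines when P was set against M, while its P was not higher with TGFβ in either. In NMuMG, M read 8.66 and 9.21 in control and 6.96 and 7.32 with TGFβ, and P read 8.67 and 8.41, then 8.17 and 8.40, so the shift of 1.54 ± 0.25 (adjusted p = 5.29e-05) came with a lower M rather than a higher P. In E1KD, M read 9.17 and 9.26, then 7.70 and 7.73, and P read 9.28 and 9.61, then 8.72 and 8.95, a shift of 0.89 ± 0.25 (adjusted p = 0.0164). That E1KD call was lost without monosomal control replicate 2, polysomal control replicate 1 or polysomal TGFβ replicate 2 (0.0551 to 0.075), with quantile normalization (0.59, adjusted p = 0.0662) and with centring on Actb and Gapdh (1.01, adjusted p = 0.0626), and with total RNA in place of M it stood at -0.63. The difference between the lines did not pass (0.65 ± 0.36, adjusted p = 0.166).

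Hbegf shifted in NMuMG by 1.30 ± 0.22 at 1418349_at (adjusted p = 6.57e-05) and 0.99 ± 0.16 at 1418350_at (adjusted p = 6.04e-05). At 1418350_at, P read 9.88 and 9.95 in control and 10.89 and 10.67 with TGFβ, while M read 10.59 and 10.39, then 10.36 and 10.38. In E1KD the P values of 10.07 and 9.91, then 10.31 and 10.18, lay below the M values of 10.81 and 10.86, then 11.16 and 11.15, and the shift was -0.07 ± 0.16 (adjusted p = 0.79). The polysomal values of 1418350_at with TGFβ lay above those of control in both lines, without overlap. At 1418349_at the E1KD P values of 9.25 and 9.12 in control and 9.21 and 9.17 with TGFβ overlapped.

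The 3 Tgfa probe sets disagreed in the pools as they had in total RNA. The NMuMG shift of 1421943_at was 0.95 ± 0.23 (adjusted p = 0.00144) and those of 1421942_s_at and 1450421_at were -1.35 ± 0.29 and -1.25 ± 0.20 (adjusted p = 0.000645 and 3.44e-05). With quantile normalization or median centring the 1421943_at shift did not pass (0.29 and 0.40; adjusted p = 0.131 and 0.0882). In E1KD, 1450421_at passed at -0.77 ± 0.20 (adjusted p = 0.00973), a call lost without monosomal control replicate 2 (0.0556). Btc had a shift of 0.87 ± 0.25 in NMuMG (adjusted p = 0.00579) as M went from 8.07 and 7.94 to 6.16 and 6.67 and P from 7.07 and 6.95 to 6.06 and 6.52, so both pools were lower with TGFβ. Quantile normalization and median centring ended the Btc call (0.37 and 0.32; adjusted p = 0.27 and 0.233).

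**Figure D3:**
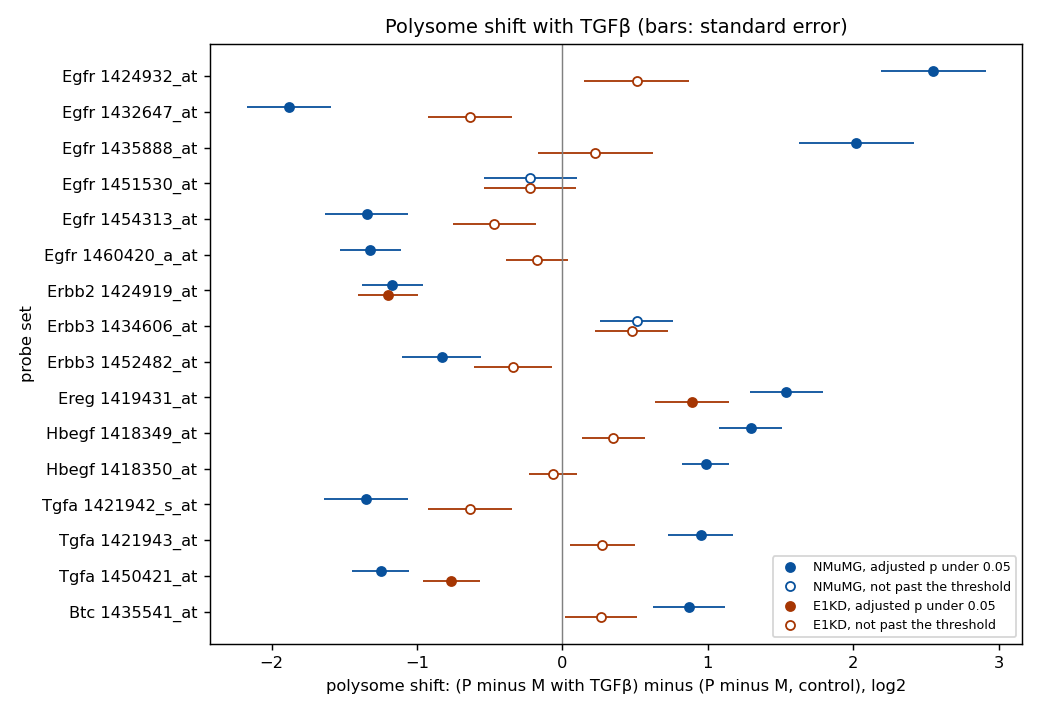
Polysome shift with TGFβ on the log2 scale (horizontal axis) of the 16 tested probe sets (vertical axis) in NMuMG and E1KD; points are fitted differences, bars are standard errors and filled points have a limma adjusted p under 0.05. NMuMG points reach from -1.88 to 2.55 and E1KD points from -1.20 to 0.89, and the Egfr and Tgfa probe sets lie on both sides of 0.

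The shift in NMuMG minus that in E1KD was above 0 for 4 member probe sets and below 0 for 2, or 37.5%, against 36.5% of all probe sets (23.5% above and 13.1% below). The 4 were Egfr 1424932_at (2.04 ± 0.51, adjusted p = 0.00554), Egfr 1435888_at (1.80 ± 0.56, 0.0201), Hbegf 1418350_at (1.05 ± 0.23, 0.00249) and Hbegf 1418349_at (0.95 ± 0.31, 0.0246). Below 0 were Egfr 1432647_at (-1.25 ± 0.41, adjusted p = 0.0266) and 1460420_a_at (-1.15 ± 0.30, 0.00762). After quantile normalization 1 was above and 2 were below, with 35.18% of all probe sets called. After median centring 3 were above and 5 below, with 39.21% of all called. Egfr 1432647_at lost its call without any 1 of 6 of the 16 pool arrays, Hbegf 1418349_at without 2 of them and Egfr 1435888_at without replicate 2 of the NMuMG polysomal control (1.41, adjusted p = 0.055).

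With total RNA in place of the monosomal pool, a comparison added after the data were seen, few of these shifts passed. In NMuMG, Hbegf 1418350_at (1.07 ± 0.16, adjusted p = 0.000656) and Tgfa 1421943_at (0.72 ± 0.23, adjusted p = 0.0475) did, 2 of 16 against 12.2% of all probe sets. Egfr 1424932_at gave 0.77 ± 0.36 (adjusted p = 0.196), 1435888_at 0.48 ± 0.40 (adjusted p = 0.514), Ereg 0.53 ± 0.25 (adjusted p = 0.208), Erbb3 1452482_at 0.17 ± 0.27 (adjusted p = 0.776) and Erbb2 -0.01 ± 0.21 (adjusted p = 0.993). The Egfr calls below 0 were lost too: 1432647_at gave -0.46 ± 0.29 (adjusted p = 0.356), 1454313_at -0.27 ± 0.29 (0.637) and 1460420_a_at 0.14 ± 0.21 (0.765). In E1KD 0 of 16 passed, against 11.5% of all probe sets, with the smallest adjusted p for Erbb2 (-0.63 ± 0.21, 0.0635) and a turned sign for Ereg (-0.63 ± 0.25, adjusted p = 0.127). Between the lines Hbegf 1418350_at (1.06), Tgfa 1421943_at (1.25) and Ereg (1.16) passed, 3 of 16 against 13.6% of all probe sets. Hbegf 1418350_at was the member called in NMuMG and between the lines under both denominators, although its difference between the lines in P against M missed the threshold with quantile normalization (0.70, adjusted p = 0.0547).

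The study selected genes by fold limits on group means, and Egfr is among those it selected from these arrays, so the following is a description and no independent evidence. For the TGFβ limits, M over P in control and P over M with TGFβ had to be at least 2, the total RNA ratio at most 2 and the induction at least 5. Egfr 1424932_at met them, with 2.04, 2.88, 1.01 and 5.86, as the 1 of 16 members; 4.1% of 22090 probe sets of 1 symbol did. Egfr 1435888_at lay just outside, at 1.89, 2.15 and an induction of 4.06. For the E1KD limits, P over M had to be at least 2 in both treatments, the total RNA ratio at most 2 and the induction under 2, and 1424932_at met them with 3.03, 4.32, 0.807 and 1.42, again as the 1 member, against 2.73% of all. The binding limit asked for a control over TGFβ ratio of at least 1.2 in the α-hnRNP E1 precipitate and at most 1 with IgG. As titled 1424932_at had 1.09 and 0.943 and 0 of 16 members met it (1.46% of all); by description it had 1.46 and was the 1 member that did (2881 of 22090 probe sets did). All 3 sets together were met by 0 members as titled and by Egfr 1424932_at by description, against 0.00453% and 0.167% of probe sets. With means of linear values, or after quantile normalization of all 32 arrays, 0 members met the TGFβ limits.

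Immunoprecipitation asked which mRNAs were held by hnRNP E1 and whether TGFβ released them. As titled, TGFβ changed 0 of 16 members in the α-hnRNP E1 precipitate, and limma called 0.0% of all probe sets (403 of 25432, or 1.58%, had an unadjusted p under 0.05). Egfr 1424932_at read 7.35 and 7.25 in control and 6.67 and 7.67 with TGFβ, and Btc read 5.36 and 6.27, then 6.31 and 5.68. Both overlapped between the groups. In the IgG precipitate 0 members passed, against 0.00393% of all probe sets (6.94% had an unadjusted p under 0.05), and the smallest adjusted p of a member was 0.746.

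By description, 3 members rose in the α-hnRNP E1 precipitate with TGFβ and 0 fell, or 18.8%, against 14.7% of all probe sets (6.09% higher and 8.6% lower). They were Btc (0.77 ± 0.13, adjusted p = 0.00461), Ereg (0.64 ± 0.15, adjusted p = 0.022) and Tgfa 1421942_s_at (0.38 ± 0.10, adjusted p = 0.0321). Egfr 1424932_at, at 7.35 and 7.67 in control and 7.25 and 6.67 with TGFβ, gave -0.55 ± 0.18 and did not pass (adjusted p = 0.0767), and 1435888_at gave -0.43 ± 0.18 (adjusted p = 0.145). The titles of control replicate 1 and TGFβ replicate 2 carry array number 13, and those of control replicate 2 and TGFβ replicate 1 carry 14. The descriptions follow this number, and in each of the other groups both arrays share 1 number. Between the 2 titled groups, the replicate 1 minus replicate 2 differences correlated at -0.592. Which grouping is right was not tested, and both are given.

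Compared with IgG over both treatments, α-hnRNP E1 precipitates had more Hbegf and less of several others. Of the members 2 were higher and 4 lower, or 37.5%, against 25.6% of all probe sets. Hbegf 1418350_at read 9.24, 9.06, 9.11 and 9.30 with α-hnRNP E1 and 8.71, 8.37, 8.81 and 8.47 with IgG, without overlap, a difference of 0.59 ± 0.12 (adjusted p = 0.0123). Hbegf 1418349_at was higher by 0.26 ± 0.08 (adjusted p = 0.0468), but stood at -0.26 after centring on Actb and Gapdh, which moved the median of all probe sets to -0.52, and 1418350_at then stood at 0.07 (adjusted p = 0.776). Ereg read 6.45, 7.31, 7.15 and 6.73 against 7.66, 7.59, 7.41 and 7.84 and was lower (-0.72 ± 0.20, adjusted p = 0.0383). Also lower were Egfr 1435888_at (-0.64 ± 0.17, adjusted p = 0.0328), Tgfa 1450421_at (-0.32 ± 0.09, 0.0401) and Erbb3 1452482_at (-0.26 ± 0.07, 0.0308). The immunoprecipitate values of this Erbb3 probe set, 4.81 to 5.12, all lay under the filter level of 5.52. The count of 6 fell to 3 without α-hnRNP E1 control replicate 1, to 1 without replicate 1 of either IgG group and to 0 without replicate 2 of either. With the replicate number as a block Hbegf 1418350_at and Egfr 1435888_at were past the threshold, and grouped by description 2 were higher and 9 lower (42.2% of all probe sets, 21.6% higher and 20.5% lower).

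**Figure D4:**
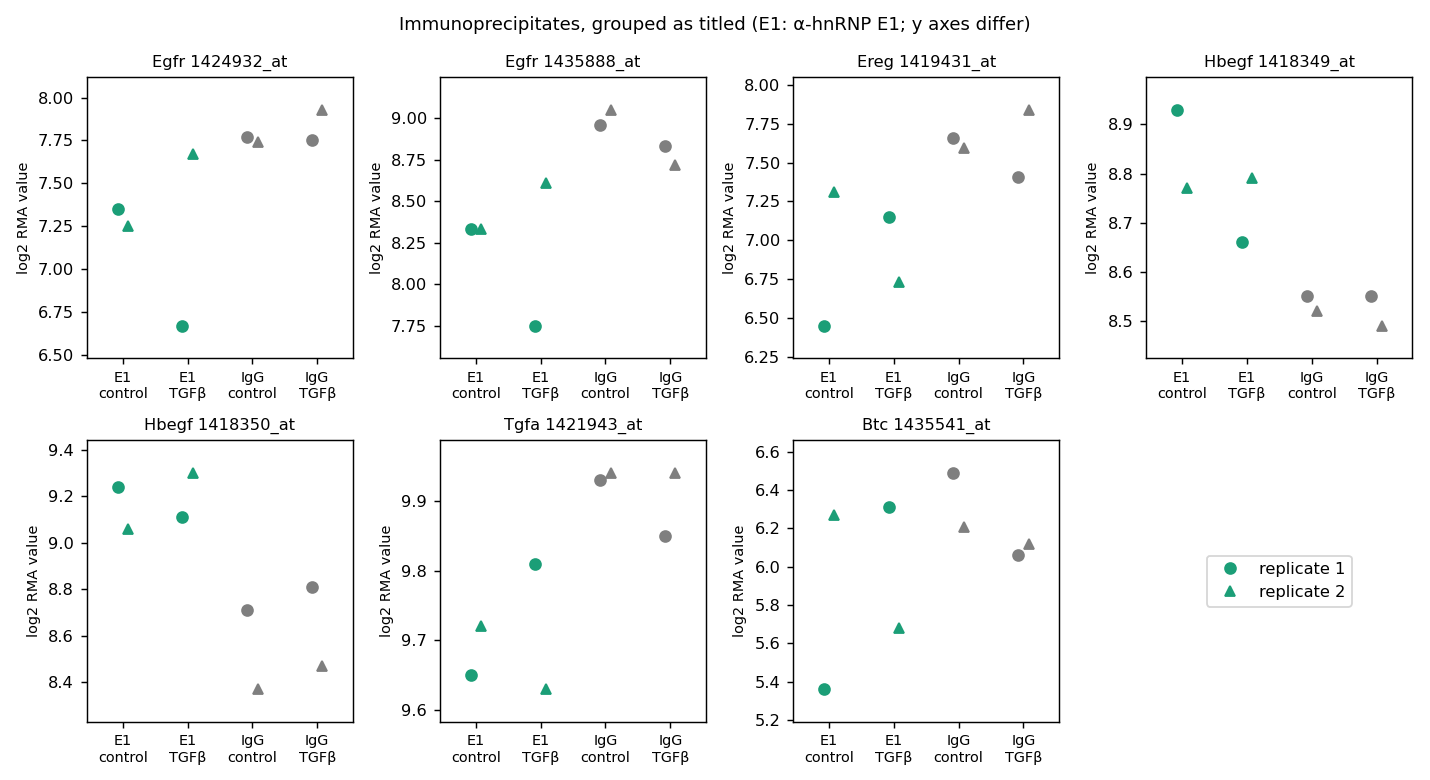
Log2 RMA values (vertical axes, each panel with its own range) of the 7 member probe sets with an NMuMG polysome shift above 0 in the 8 immunoprecipitates (horizontal axis; E1 stands for α-hnRNP E1), grouped as titled; circles are replicate 1 and triangles replicate 2. The 4 α-hnRNP E1 points of Hbegf 1418350_at (9.06 to 9.30) lie above the 4 IgG points (8.37 to 8.81), and those of Ereg and Egfr 1424932_at lie below.

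Other genes of the pathway were read from 8 lists of 79 genes, of which 72 had a probe set of 1 symbol and 65 passed the filter, each by its probe set of highest mean. In untreated E1KD against NMuMG total RNA 6 were higher and 23 lower, with 29.3% of all probe sets called (15.8% higher and 13.5% lower). Here and below, all probe sets are an unlike set, because they include probe sets of lower mean. Of the 7 feedback inhibitors of the Ras-MAPK route 0 were higher and 5 lower, with a median of -1.14 against -0.02 for all. They included the ERK phosphatase Dusp6 (-1.70 ± 0.13), the Ras-Raf inhibitor Spred1 (-1.36 ± 0.23) and the phosphatase Dusp5 (-1.18 ± 0.25). Of 12 receptor inhibitors, ubiquitin ligases and phosphatases 0 were higher and 3 lower: Errfi1, which binds and blocks EGFR (-1.22 ± 0.15), Lrig1, which promotes receptor degradation (-1.03 ± 0.19), and Socs5 (-0.79 ± 0.13). Among 10 early target genes 1 was higher, Jun (2.73 ± 0.18), and 4 were lower, including Fos (-1.12 ± 0.19) and Ier3 (-0.81 ± 0.11). Of 6 genes of ligand shedding the metalloprotease Adam12 was higher (0.86 ± 0.24) and Rhbdf1, a partner of ADAM17, lower (-0.54 ± 0.09).

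In total RNA of NMuMG cells given TGFβ, 3 of 65 pathway genes rose and 3 fell, with 5.43% of all probe sets called: Jun (1.24 ± 0.18), Spred2 (0.59 ± 0.16) and the adaptor Nck2 (0.43 ± 0.09) rose, and the transcription factors Egr1 (-1.65 ± 0.16) and Fosl1 (-1.01 ± 0.11) and Dusp6 (-1.13 ± 0.13) fell. In E1KD 9 rose and 4 fell, with 21.2% of all called, among them Egr1 (1.54 ± 0.16), Adam12 (1.31 ± 0.24), Junb (1.01 ± 0.14) and the ErbB3 ligand Nrg1 (0.87 ± 0.25). Egr1 thus changed in opposite directions in the 2 lines. In the polysome shift of NMuMG 38 of 65 were above 0 and 11 below, with 70.4% of all probe sets called (40.1% above and 30.3% below). For the 14 adaptors and docking proteins 11 were above 0 and 2 below. Their median was 1.83, against 0.09 over all probe sets, which is an unlike set because it includes probe sets of lower mean. These counts rest on the NMuMG monosomal control arrays too, and with total RNA in place of M, added after the data were seen, 16 of 65 were above 0 and 1 below (12.2% of all called), with 4 adaptors above 0, 0 below and a median of 0.26.

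The genes whose pattern over the 12 condition means was most like a member's were found by Pearson correlation, as a description without a test. For Egfr 1424932_at they were Myof (0.991), Trim33 and Odf2l (both 0.985), and for 1435888_at Cspp1 (0.991), Acaca (0.988) and Ahctf1 (0.983). The Egfr probe sets of opposite shift had other neighbours, led by Trim46 (0.962) for 1432647_at, Apol6 (0.986) for 1454313_at and Plxna4os1 (0.924) for 1460420_a_at. Erbb2 was most like Igsf8 (0.966), Ereg like Gclc (0.959) and Ptgs2 (0.946), Tgfa 1421943_at like Chn2 (0.971) and Btc like Samd5 (0.937) and Fgfr2 (0.931). Hbegf 1418350_at had the loosest match, with Nagk at 0.846. All of these values share arrays and normalization.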

How the data were processed

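RNA of 16 groups was hybridized to 32 Affymetrix mouse arrays, 2 per group. The authors deposited log2 RMA values (Affymetrix Expression Console, per the labels) for 45101 probe sets; RMA includes background correction, quantile normalization and probe summarization. Such values have no counting depth, and precision is limited by the 2 arrays of a group. Groups come from the sample titles. After removal of 64 control probe sets and the filter on low values, 25432 probe sets were fitted with limma 3.58.1 in R 4.3.3: 1 fit of the 24 total RNA and pool arrays (12 groups) and 1 of the 8 immunoprecipitates, 2-sided, with Benjamini-Hochberg adjustment within each contrast and a threshold of 0.05. Errors are limma standard errors. The scripts were tested on simulated data. Gene names follow the array annotation and 22090 of the fitted probe sets had 1 symbol. All member probe sets are named; of each pathway list at most the 3 largest called differences in a contrast are named. The members and lists were chosen with earlier results of these data known. Replicate numbers were not taken as pairs in the main fit. Over 66 pairs of pool and total RNA groups the deviations from group means correlated at -0.383 to 0.323, 21 of them over 0.1. Such values do not exclude steps shared by arrays of 1 replicate number, so the block on replicate number served as an alternative. Alternatives covered the filter, the arrays in the fit, the variance trend, scaling, the block, the grouping of the precipitates and each array left out. Areg was not analysed here, no sequence was used, and gene order on chromosome 5 was read from RefSeq.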

Additional observations from a re-analysis of the deposited data

Results flagged for a closer look

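By the test of the difference itself (effect in E1KD minus effect in NMuMG), the response to TGFβ in total RNA differed between the lines for 2 members. They made up 12.5% of the member probe sets, against 11.4% of all probe sets. The differences were 1.30 for Btc 1435541_at and 1.19 for Tgfa 1421943_at. Both were past the threshold without any 1 of the 8 total RNA arrays.

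The polysome shift differed between the lines (NMuMG minus E1KD) for 6 member probe sets, all of Egfr or Hbegf. They made up 37.5% of the member probe sets, against 36.5% of all probe sets. It was 2.04 for Egfr 1424932_at, 1.80 for Egfr 1435888_at, 1.05 for Hbegf 1418350_at and 0.95 for Hbegf 1418349_at. It was -1.25 for Egfr 1432647_at and -1.15 for Egfr 1460420_a_at, so probe sets of Egfr differed between the lines in opposite directions. All 6 values rest on the NMuMG monosomal control arrays, whose interquartile range of 3.69 to 3.80 lay above that of the other pools, and with total RNA in place of the monosomal pool only Hbegf 1418350_at of the 6 stayed past the threshold (1.06).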

How the results depend on the processing

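Counts of member probe sets called depended on the setting as follows. For TGFβ in NMuMG total RNA the count of 2 became 1 with all 32 arrays in 1 fit, 4 with only the arrays compared and 0 with centring on Actb and Gapdh. For E1KD total RNA it became 1 without the filter and 1 with quantile normalization, 6 with only the arrays compared and 9 with Actb and Gapdh. That last setting called 60.04% of all probe sets. E1KD against NMuMG with TGFβ went from 10 to 6 with Actb and Gapdh, and the difference in response from 2 to 6 with only the arrays compared. For P against M, NMuMG control went from 11 to 7 with quantile normalization and NMuMG with TGFβ from 8 to 4 with only the arrays compared. The NMuMG shift went from 14 to 2 with total RNA in place of the monosomal pool, the E1KD shift from 3 to 1 with Actb and Gapdh and to 0 with total RNA, and their difference from 6 to 3 with each of only the arrays compared, quantile normalization and total RNA. The precipitates of α-hnRNP E1 went from 0 to 3 by description (14.7% of all probe sets called). Against IgG they went from 6 to 2 with the replicate block, 13 with Actb and Gapdh (59.04% of all called) and 11 by description (42.2% of all called). Fold limits went from 0 to 1 by description. With the numbers of the α-hnRNP E1 arrays crossed in the replicate block, TGFβ called 0 members as without it. For the other comparisons the replicate block moved the count of calls by no more than 1.5 times (the difference in response went from 2 to 3). The fit with only the arrays compared has fewer arrays, and its counts rose in some comparisons and fell in others. Causes were not tested.

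Leaving out 1 array gave counts of 1 to 2 and 1 to 1 for TGFβ in NMuMG and E1KD total RNA, 8 to 8 and 7 to 9 for E1KD against NMuMG, 2 to 2 for their difference in response, 10 to 12, 5 to 9, 2 to 3 and 7 to 9 for P against M, 13 to 15 and 1 to 4 for the NMuMG and E1KD shifts, 4 to 9 for their difference, 0 and 0 for TGFβ in the precipitates and 0 to 8 for α-hnRNP E1 against IgG. The 1 in the E1KD shift came without monosomal control replicate 2.

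For 12 values (9 of members and 3 of pathway genes) that were called in the report or under the alternative itself, the alternative turned the direction. With Actb and Gapdh, differences with TGFβ in E1KD total RNA became 0.16 for Egfr 1460420_a_at, 0.55 for Tgfa 1450421_at, 0.07 for Rnf41, 0.005 for Gab2 and 0.17 for Dusp4, and differences from IgG became -0.51 for Egfr 1451530_at and -0.26 for Hbegf 1418349_at. P minus M of Tgfa 1421943_at in NMuMG control became 0.47 with quantile normalization and 0.43 with median centring. With total RNA the shift became 0.14 for Egfr 1460420_a_at and 0.17 for Erbb3 1452482_at in NMuMG and -0.63 for Ereg in E1KD. Of 2241 member values under alternatives other than leaving out an array, 2068 kept their side of the threshold, 89 of them with a turned sign and no call in the report or under that alternative, 82 lost a call, 82 gained one and 9 reversed.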
